A study of Mus musculus with 12 samples.

Results

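The DM domain transcription factor genes Dmrt1, Dmrt2, Dmrt3 and Dmrtc2 were followed across mouse fetal testes with and without Dmrt1. All probe sets that the platform annotation assigned only to one of these genes were taken, 7 probe sets for 4 genes, of 34945 probe sets and 18193 genes in all. Dmrt3 had 4 probe sets, and Dmrt1, Dmrt2 and Dmrtc2 had 1 each. Total RNA from E15.5 testes was hybridised to 12 Affymetrix arrays. The 4 groups of 3 arrays were wild type on 129Sv, Dmrt1 knockout on 129Sv, wild type on B6 and Dmrt1 knockout on B6. The sample labels call the mutants Dmrt1 knockouts, whereas the series text speaks of a conditional deletion. Neither names the Cre driver, the allele, the exons removed or any pooling of animals. The growth protocol of the labels names P28, and the stage E15.5 of the age label was followed. The labels do not say whether the arrays of a group came from separate animals, so p-values measure only the spread between these arrays, which may be technical. Numbers in the sample titles, whose meaning is not given, also follow the groups. The last number was 1 to 3 on B6 knockout, 4 to 6 on B6 wild-type and 7 to 12 on 129Sv arrays. Whatever it stands for cannot be told apart from strain or, within B6, from the knockout. In 129Sv it was 9 to 11 on knockout arrays and 7, 8 and 12 on wild-type arrays. The first number is common to B6 wild-type and knockout replicates 1, and another to replicates 2. In 129Sv, the number before the strain is the same on all 3 knockout arrays and on wild-type array 2, and differs on the other wild-type arrays. With it as a covariate the 129Sv knockout difference was -2.48 for Dmrt1 and 1.75 for Dmrt3 on the log2 scale. That fit sets the 3 knockout arrays against wild-type array 2 alone, so only the values are given.

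The DM domain is a zinc-binding DNA-binding module, shared with the sex-determining genes doublesex of flies and mab-3 of nematodes. DMRT1 acts in germ cells and in Sertoli cells, the supporting cells of the testis cords, and keeps the postnatal testis from taking on ovarian features. DMRT3 is known from spinal cord interneurons and DMRT2 from the somites, while DMRTC2 (also called DMRT7) is needed for male meiosis in the pachytene stage. Dmrt1, Dmrt3 and Dmrt2 follow each other on chromosome 19, and Dmrtc2 lies on chromosome 7.

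Promoter sequences from RefSeq (GRCm38.p6), each the 250 bases before the annotated start on the plus strand, are shown for the neighbours Dmrt3 and Dmrt2, of which one rose without Dmrt1 and one stayed near background, and for Dmrtc2, whose level moved with strain. Capitals mark the CCAAT box, read on both strands (ATTGG on the printed strand is a box on the other). They lie at chr19:25610287-25610536 for Dmrt3, chr19:25672161-25672410 for Dmrt2 and chr7:24869807-24870056 for Dmrtc2.
Dmrt3: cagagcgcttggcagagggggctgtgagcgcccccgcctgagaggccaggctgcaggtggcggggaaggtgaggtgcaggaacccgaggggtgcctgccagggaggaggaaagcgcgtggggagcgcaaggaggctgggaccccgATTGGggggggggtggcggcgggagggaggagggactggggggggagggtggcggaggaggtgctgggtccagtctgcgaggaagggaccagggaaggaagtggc
Dmrt2: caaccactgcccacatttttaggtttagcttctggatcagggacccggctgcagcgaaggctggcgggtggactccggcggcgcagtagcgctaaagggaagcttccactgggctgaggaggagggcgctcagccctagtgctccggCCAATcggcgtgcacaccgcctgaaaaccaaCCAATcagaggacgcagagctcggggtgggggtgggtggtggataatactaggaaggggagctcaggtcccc
Dmrtc2: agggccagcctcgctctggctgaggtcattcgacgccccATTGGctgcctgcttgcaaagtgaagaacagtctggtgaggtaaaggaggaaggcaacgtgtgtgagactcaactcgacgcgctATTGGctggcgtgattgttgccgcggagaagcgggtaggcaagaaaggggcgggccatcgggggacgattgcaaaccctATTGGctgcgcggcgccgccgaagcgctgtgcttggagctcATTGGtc
The Dmrt3 window held 1 CCAAT box, the Dmrt2 window 2 and the Dmrtc2 window 4. Of 32851 promoters of the same length, 33.8% held at least 1 such box, 10.1% at least 2 and 0.84% at least 4. The boxes of Dmrtc2 were all on the opposite strand, and began 211, 127, 48 and 7 bases before its start. The letters ACATTGT, the core of the element that DMRT1 binds, were searched on both strands and were in none of the 3 windows, nor in most others: 2.56% of all promoters held them. GC made up 72.4% of the Dmrt3 window, 62.4% of the Dmrt2 window and 60.8% of the Dmrtc2 window, against a median of 52.4%. Promoters are background to the values that follow, and no binding or methylation was measured here.

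Values are GCRMA intensities. Genes with an intensity of at least 16 on at least 3 arrays were tested, 12726 in all, with limma (adjusted p under 0.05 by the Benjamini-Hochberg method over all of them), and errors of log2 differences are standard errors. Arrays of a group correlated across probe sets with r of 0.983 to 0.998, and array medians lay between 17.3 and 19. RNA quality, read as 3′ over 5′ Actb signal (higher with breakdown), was poorest on B6 knockout array 3 (6.3) and 129Sv knockout array 1 (5.24), followed by 129Sv wild-type array 2 (3.91), with at most 2.79 elsewhere. Dmrt1 and Dmrt3 were above 16 on all 12 arrays and Dmrtc2 on 8 of them. Dmrt2 was below 16 on every array and did not pass the filter, so 3 of the 4 genes were tested. Levels of different probe sets cannot be set against each other.

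Dmrt1, the targeted gene, was read by probe set 1423582_at. In 129Sv its intensities were 1183, 924 and 1014 in wild type and 173, 145 and 181 in the knockout. In B6 they were 795, 1092 and 1066 in wild type and 86.4, 64.0 and 72.9 in the knockout. No knockout array reached any wild-type array, and every knockout array stayed above 16. Lower knockout arrays without overlap were seen for 14.6% of tested genes in 129Sv and 13.4% in B6. The labels of all 12 arrays thus matched the level of the targeted gene. The log2 difference between knockout and wild type was -2.64 ± 0.17 in 129Sv (limma adjusted p = 4.72e-07) and -3.72 ± 0.17 in B6 (1.97e-08). Among all tested genes this fall ranked 29 by size in 129Sv and 13 in B6. Whether the probe set lies within the removed part is not given, so the remaining signal cannot be split between transcript of the altered allele and intact Dmrt1. In bulk tissue, fewer cells of a type and less RNA per cell cannot be told apart, here or below.

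**Figure D1:**
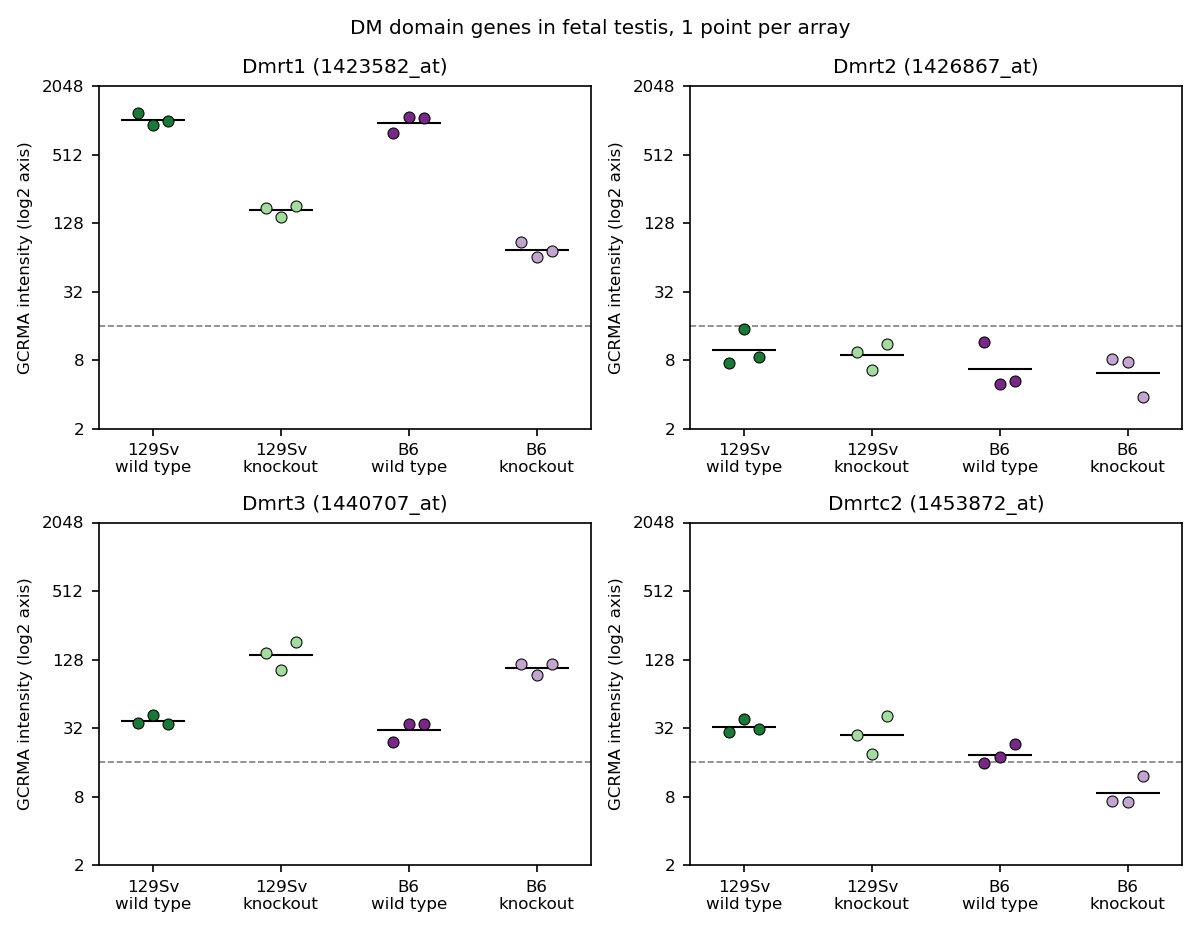
Each panel plots the intensity of 1 gene's best probe set on a log2 axis, with 1 point per array, 3 arrays per group, a bar at the mean of the log2 values and a dashed line at the filter of 16. Dmrt1 is lower and Dmrt3 higher in every knockout array, Dmrt2 stays under 16 throughout, and Dmrtc2 is under 16 on all 3 B6 knockout arrays.

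The remaining Dmrt1 signal differed between the strains. The wild-type arrays of the strains overlapped, with a 129Sv minus B6 difference of 0.09 ± 0.17 on the log2 scale (95% interval -0.28 to 0.46, limma adjusted p = 0.777). The knockout arrays did not overlap: the lowest 129Sv array was at 145 and the highest B6 array at 86.4, a 2.25-fold difference (log2 1.17 ± 0.17, adjusted p = 0.00017). Groups that did not overlap in this direction were common between the knockouts, 25% of tested genes, and 34.1% of tested genes were called, 20.3% higher in 129Sv and 13.8% lower. The difference of the knockout effects, 129Sv minus B6, was 1.08 ± 0.24 (95% interval 0.56 to 1.6, limma adjusted p = 0.045), in a comparison that called 1.31% of tested genes, 1.12% with a higher and 0.196% with a lower value in 129Sv. That call was close to the threshold: 19 of 26 alternatives did not pass it, with adjusted p from 0.00432 to 0.137, among them 10 of the 12 fits without 1 array, while the value stayed between 0.98 and 1.24.

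Germ cell markers moved with this difference. The summed intensity of 9 germ cell markers (Ddx4, Dazl and other germ cell genes of a fixed list) was 21510 to 23340 in 129Sv wild type and 18810 to 25100 in 129Sv knockout, but 16100 to 17930 in B6 wild type and 7323 to 11900 in B6 knockout. Their mean log2 level changed by -0.11 in the 129Sv knockout and by -0.97 in the B6 knockout. The Dmrt1 log2 level minus that mean, array by array, changed by -2.54 in 129Sv and by -2.76 in B6, a difference of 0.22. On that scale 129Sv minus B6 was -0.52 in wild type and -0.3 in the knockouts, against 0.09 and 1.17 without a reference. Set against 12 Sertoli cell markers in the same way, the Dmrt1 level changed by -2.34 in 129Sv and -3.37 in B6, a difference of 1.03. There 129Sv minus B6 was 0.28 in wild type and 1.31 in the knockouts. With all values below 16 set to it, the Dmrt1 changes against germ cell markers were -2.54 in 129Sv and -2.84 in B6. Against Sertoli cell markers they were then -2.44 and -3.47. Both references were chosen after the values were seen, and no test was made of them. The part of the marker shift in the strain difference was not tested.

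Dmrt3 rose without Dmrt1 in both strains. The intensities of its brightest probe set, 1440707_at, were 35.1, 41.8 and 34.7 in 129Sv wild type and 146, 104 and 182 in 129Sv knockout. They were 24.0, 34.8 and 34.6 in B6 wild type and 117, 93.6 and 116 in B6 knockout. The lowest knockout array, at 93.6, lay above the highest wild-type array, at 41.8, whatever the strain. The log2 difference was 1.92 ± 0.23 in 129Sv (limma adjusted p = 7.88e-05) and 1.82 ± 0.23 in B6 (0.000187), the 64th and the 14th largest rises among tested genes. Higher knockout arrays without overlap were seen for 14.2% of tested genes in 129Sv and 14.3% in B6.

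The 4 Dmrt3 probe sets differed in brightness. The second, 1449763_at, rose from 8.13, 8.01 and 6.99 in 129Sv wild type to 17.9, 17.2 and 29.8 in the knockout, at least 1.31-fold given the filter level of 16. In B6 its values were 6.22, 6.33 and 6.66 in wild type and 14.9, 11.7 and 22.7 in the knockout, with both means of the log2 values below 4, an intensity of 16. In a fit of 21900 single probe sets it rose by 1.45 ± 0.26 on the log2 scale in 129Sv (limma adjusted p = 0.00479) and by 1.31 ± 0.26 in B6 (0.0115). It passed the filter only through knockout arrays, so it had to differ. The third, 1420182_x_at, whose suffix marks probes that may cross-hybridise, was at 3.95 to 5.27 in wild type and 5.3 to 7.36 in the knockouts, below the filter. With no filter its log2 difference was 0.44 ± 0.14 in 129Sv and 0.32 ± 0.14 in B6, neither past the threshold (limma adjusted p = 0.111 and 0.251), and 0.38 ± 0.1 averaged over strains (0.0322). The fourth, 1460267_at, lay between 2.34 and 2.97 on all arrays, near the lowest value in the data (1.4), with an average difference of 0 ± 0.06. The annotation cites 1 common source sequence for these 3 dimmer probe sets, so these may share a target region, and the brightest has its own.

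**Figure D2:**
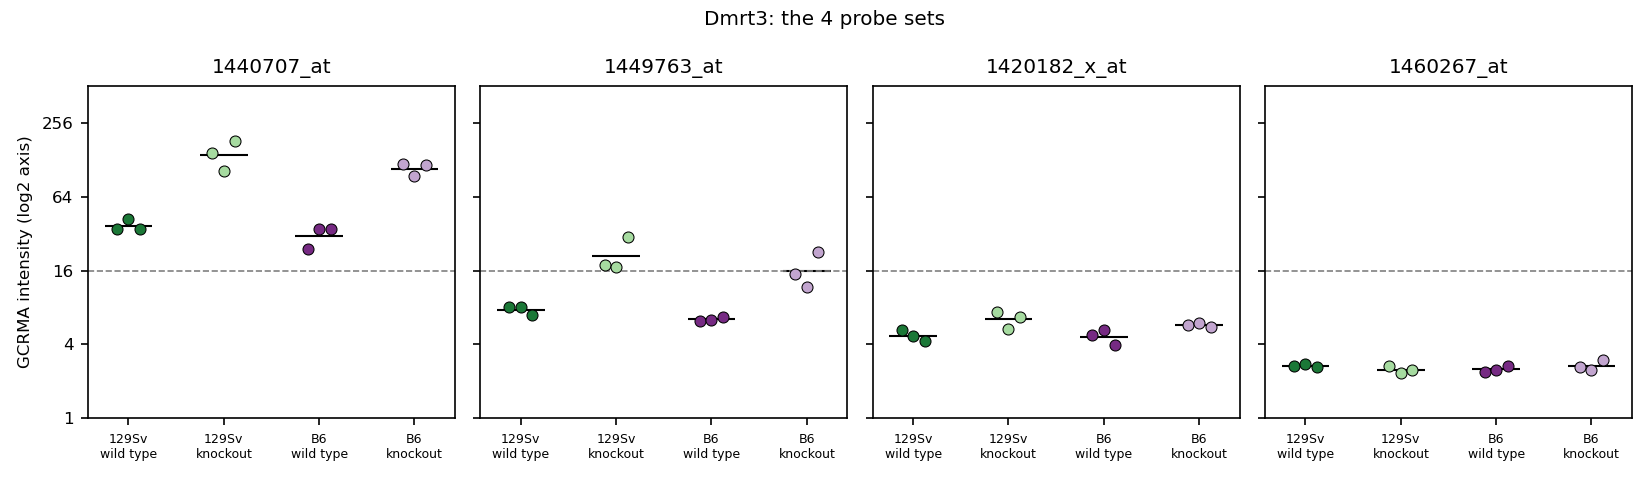
Each panel plots 1 of the 4 Dmrt3 probe sets as intensity on a log2 axis shared by all panels, with 1 point per array, a bar at the mean of the log2 values of 3 arrays and a dashed line at 16. Knockout arrays lie above wild-type arrays of their strain in the first 3 panels, and the fourth stays between 2.34 and 2.97.

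For Dmrt3 no strain comparison passed the threshold. 129Sv minus B6 was 0.27 ± 0.23 on the log2 scale in wild type (95% interval -0.21 to 0.76, limma adjusted p = 0.456) and 0.37 ± 0.23 in the knockouts (-0.11 to 0.86, 0.22), and the arrays overlapped in both. The knockout effects differed by 0.1 ± 0.32 (95% interval -0.58 to 0.79, adjusted p = 0.895). With array weights the difference in the knockouts was 0.61 and passed (adjusted p = 0.0206). Relative to Sertoli cell markers the Dmrt3 rise was 2.24 in 129Sv and 2.18 in B6. Relative to germ cell markers it was 2.03 in 129Sv and 2.79 in B6.

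Dmrtc2 fell in the B6 knockout and was higher in 129Sv than in B6 among the knockouts. It passed the filter through the 129Sv arrays and 2 B6 wild-type arrays. Its probe set, 1453872_at, had intensities of 29.8, 38.1 and 31.4 in 129Sv wild type and 27.8, 18.8 and 40.5 in 129Sv knockout. In B6 it had 15.6, 17.9 and 23.3 in wild type and 7.26, 7.20 and 12.1 in the knockout. The 129Sv groups overlapped, and each B6 knockout array lay below 16 and below each B6 wild-type array (as for 13.4% of tested genes). Knockout minus wild type was -0.25 ± 0.29 on the log2 scale in 129Sv (95% interval -0.87 to 0.37, limma adjusted p = 0.708) and -1.12 ± 0.29 in B6 (0.0287), where the fold is at least 1.17 given the filter level. The B6 call was lost with values below 16 set to it (-0.24, adjusted p = 0.566) and without B6 knockout replicate 1 or 2 or B6 wild-type replicate 2 or 3 (adjusted p of 0.0634, 0.0953, 0.0697 and 0.137). The strains' effects differed by 0.87 ± 0.41, which did not pass (adjusted p = 0.309). With array weights it was 1.36 and passed (0.0198).

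Between strains, Dmrtc2 lay higher on 129Sv arrays. In wild type the arrays did not overlap, as for 26.6% of tested genes in this direction, but the difference of 0.82 ± 0.29 did not pass (1.76-fold, limma adjusted p = 0.0696, unadjusted p = 0.0136). It passed in 7 of 26 alternatives, among them the fits without 129Sv knockout replicate 2 (adjusted p = 0.0483) and without B6 knockout replicate 3 (0.0324). In the knockouts the difference was 1.69 ± 0.29, at least 1.73-fold (adjusted p = 0.000565), and held in all 26 alternatives. Among these, in the fit of only the groups compared, Dmrtc2 passed the filter only through 129Sv knockout arrays. It had to differ there, so that fit adds no support. Permuted within genotype, the strain difference of 1.25 reached p = 0.005 by a two-sided exact permutation test, the smallest that 400 assignments can give.

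Dmrtc2 was set against the germ cell markers. Its log2 level minus their mean was -5.28 ± 0.16 (SD, n = 3) in 129Sv wild type, -5.42 ± 0.44 in 129Sv knockout, -5.48 ± 0.14 in B6 wild type and -5.64 ± 0.59 in B6 knockout. On that scale the knockout effects were -0.14 in 129Sv and -0.16 in B6, and the strain differences 0.2 in wild type and 0.22 in the knockouts. These values rest in B6 on intensities around and below 16, which carry little order. With all values below 16 set to it, in Dmrtc2 and in the markers, the knockout effects were -0.15 in 129Sv and 0.65 in B6, and the strain differences 0.19 and -0.6. Relative to Sertoli cell markers the values were 0.06 and -0.76 for the knockout effects and 1.01 and 1.83 for the strain differences. With the same floor these were -0.05, 0.01, 1 and 0.94. Of the 9 germ cell markers, 5 fell in the B6 knockout, among them Gtsf1 (-2.62) and Dnd1 (-1.43), and 1, not named here, rose. In the 129Sv knockout 1 rose (Rnf17, 0.98), 2 without both arrays of the highest Actb ratio (also Dazl, 0.43). All 9 were higher in 129Sv among the knockouts, against 20.3% of all tested genes.

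**Figure D3:**
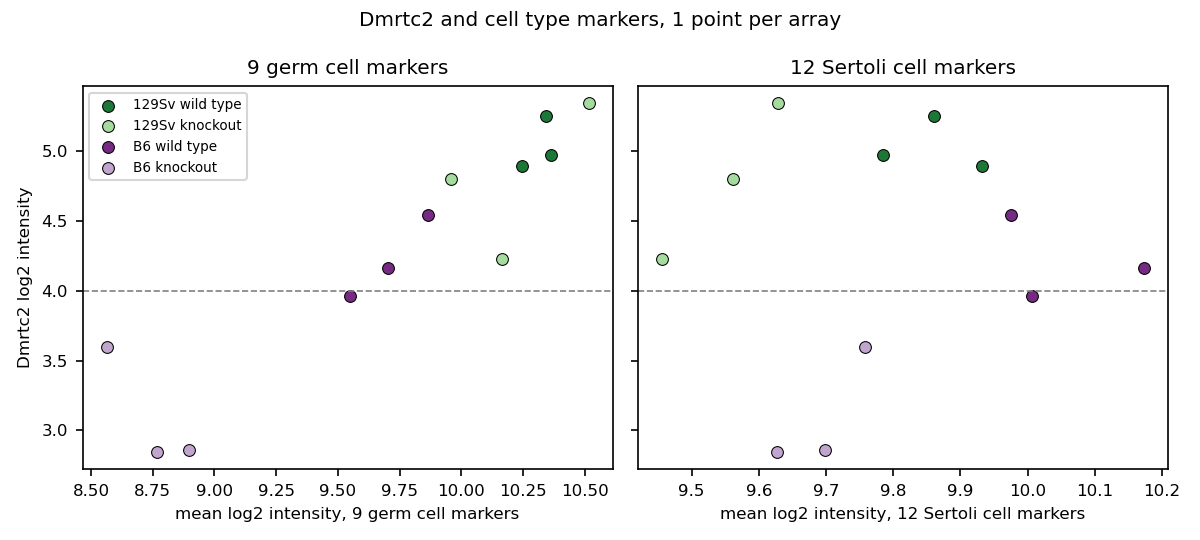
Each point is 1 array, with the Dmrtc2 log2 intensity (dashed line at 4, the filter) against the mean log2 intensity of 9 germ cell markers (left) or 12 Sertoli cell markers (right), coloured by group. The 3 B6 knockout arrays are lowest for Dmrtc2 and for germ cell markers, but not for Sertoli cell markers.

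Dmrt2 was not detected above the filter in any group. Its probe set, 1426867_at, read 7.57, 14.9 and 8.49 in 129Sv wild type and 9.43, 6.56 and 11.1 in 129Sv knockout. In B6 it read 11.6, 4.97 and 5.19 in wild type and 8.10, 7.61 and 3.79 in the knockout. All 4 groups overlapped. Without the filter the log2 difference was -0.16 ± 0.36 in 129Sv (95% interval -0.92 to 0.61, limma adjusted p = 0.881) and -0.12 ± 0.36 in B6 (-0.88 to 0.65, 0.874). Its neighbour Dmrt3, on the same stretch of chromosome 19, was the gene that rose.

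**Figure D4:**
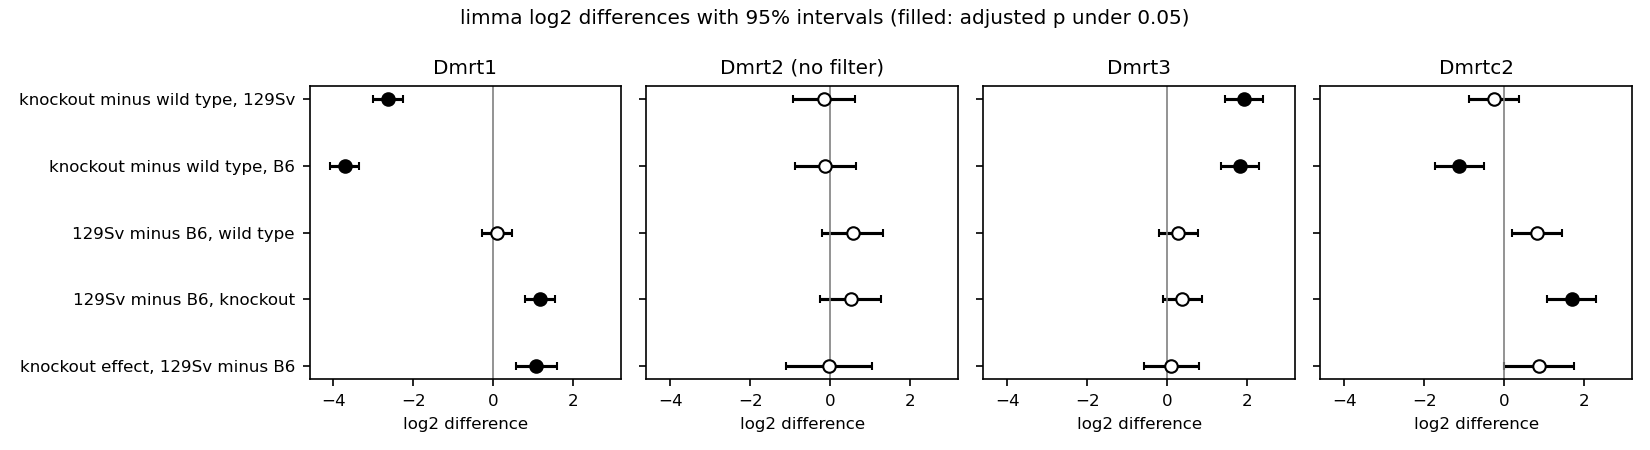
Each point is a limma log2 difference with its 95% interval, for the 4 genes in 5 comparisons, filled where the adjusted p was under 0.05, with Dmrt2 from the fit with no filter. Dmrt3 rises by 1.92 and 1.82 in the 2 strains, the Dmrtc2 strain differences lie above 0 in both genotypes, and no Dmrt2 point is filled.

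Of the 3 tested genes, 2 were called in the 129Sv knockout, where 8.31% of all tested genes were called, 4.07% higher and 4.24% lower. In the B6 knockout 3 were called, against 7.9% of all tested genes, 2.45% higher and 5.45% lower. Dmrt1 was among them as the targeted gene. Averaged over strains, all 3 passed (13.5% of tested genes, 5.62% higher and 7.88% lower), with -3.18 ± 0.12 for Dmrt1, 1.87 ± 0.16 for Dmrt3 and -0.69 ± 0.21 for Dmrtc2 (limma adjusted p = 1.29e-09, 2.15e-06 and 0.038). The Dmrtc2 average lost its call in 13 of 25 alternatives, 9 of them fits without 1 array. With 3 arrays against 3, a two-sided exact permutation test of 1 strain cannot go below 0.1. With labels permuted within strain, Dmrt1 and Dmrt3 each reached p = 0.005, the smallest that 400 assignments can give, Dmrtc2 had 0.035 and Dmrt2 0.65, by two-sided exact permutation tests of 4 genes, unadjusted. Between wild types of the 2 strains limma called 0 of the 3 genes (16.1% of all tested genes were called, 10.9% higher in 129Sv and 5.19% lower), and 1 had an unadjusted p under 0.05, Dmrtc2.

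The genes around these loci were taken in RefSeq order, 8 tested genes on each side. Next to Dmrt1 lies Kank1, which encodes a regulator of the actin cytoskeleton. It had intensities of 178 to 191 in 129Sv wild type and 242 to 274 in the knockout, and 199 to 219 and 238 to 325 in B6, without overlap (14.2% and 14.3% of tested genes in this direction). Its log2 difference was 0.49 ± 0.15 in 129Sv and 0.39 ± 0.15 in B6, not past the threshold (limma adjusted p = 0.0592 and 0.126), and 0.44 averaged over strains (0.0118). On the far side, Smarca2, a catalytic subunit of the BAF chromatin remodelling complex, changed by -0.02 ± 0.1 and -0.06 ± 0.1, neither past the threshold. Of the 16 neighbours, 1 rose and 3 fell in 129Sv, where 4.07% of tested genes rose and 4.24% fell, and 2 fell in B6, where 5.45% fell. Dock8, a guanine nucleotide exchange factor known from leukocytes, fell by 1.51 ± 0.22 in 129Sv and by 0.87 ± 0.22 in B6 (adjusted p = 0.000504 and 0.0255). Pgm5 fell by 0.84 and fell by 1.00, and without both arrays of the highest Actb ratio its 129Sv call was lost (-0.56, adjusted p = 0.139). In that fit Vldlr (-0.96, limma adjusted p = 0.00307) and Slc1a1 (-1.38, 0.00998) also fell in 129Sv, so 4 neighbours fell there. Slc1a1 passed the filter through the 129Sv wild-type arrays and 1 knockout array. In 129Sv, Pip5k1b fell by 1.06 and Glis3, a zinc finger factor, rose by 0.94. The median over these 16 was -0.1 in 129Sv and -0.07 in B6, against -0.006 and 0.032 over all tested genes.

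Of the 8 tested genes on one side of Dmrtc2, 3 fell without Dmrt1 in both strains (Lypd4, Ceacam10 and Cd177), and Tex101 fell in B6. The nearest, Lypd4, starts on the opposite strand, and its 250-base promoter window shares 135 bases with that of Dmrtc2. Its intensity was 49.0 to 70.8 in 129Sv wild type and 8.07 to 18.2 in the knockout, and 13.4 to 34.1 and 3.87 to 4.90 in B6. It fell by 2.49 ± 0.35 on the log2 scale in 129Sv and by 2.20 ± 0.35 in B6 (limma adjusted p = 0.000355 and 0.00127), a fall in 129Sv where the Dmrtc2 groups overlapped. Both knockout means lay below 16, so the folds are at least 3.77 in 129Sv and at least 1.24 in B6. It was higher in 129Sv wild type by 1.60 ± 0.35 (adjusted p = 0.00692). Ceacam10 fell by 2.75 in 129Sv and fell by 3.63 in B6, there to a mean below 16 and by at least 9.69-fold. Cd177 fell by 1.74 and fell by 1.04, to knockout values of at most 10.6, so by at least 1.91-fold and 1.05-fold. Cd177 passed the filter only through wild-type arrays, and Lypd4 through 5 of these and 1 knockout array, so they had to differ. Tex101, a germ cell surface protein gene, fell by 2.44 in B6 (adjusted p = 0.000154). In all, 3 of 16 neighbours fell in 129Sv, and 4 fell and 1 (Irgq, 0.51) rose in B6, against the 4.24% and, in B6, 5.45% lower and 2.45% higher over all tested genes. The Irgq call was lost without both arrays of the highest Actb ratio (0.48, limma adjusted p = 0.0736). Rps19, the ribosomal protein gene on the other side, changed by -0.01 ± 0.11 and 0.28 ± 0.11, neither past the threshold. The medians over the 16 were -0.06 and 0.24.

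**Figure D5:**
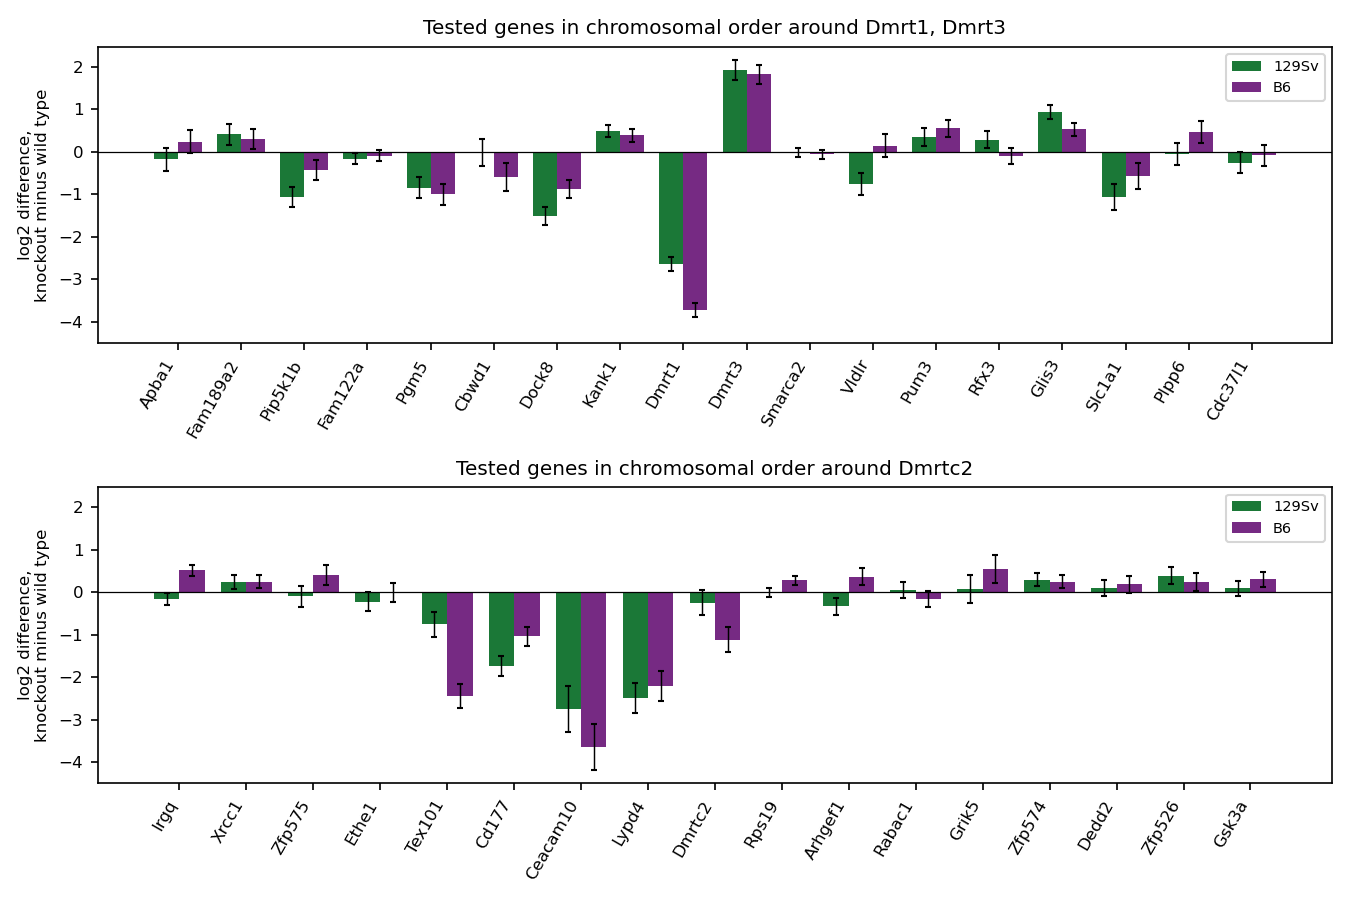
Bars give the log2 difference between knockout and wild type in 129Sv and B6 for the tested genes in RefSeq order around Dmrt1 and Dmrt3 (top) and Dmrtc2 (bottom), with standard errors from limma. Beside Dmrtc2 the bars of Lypd4, Ceacam10 and Cd177 point down in both strains, while Rps19 is near 0.

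The genes closest to each pattern were found by the root mean square difference of centred log2 values over the 12 arrays. Those nearest Dmrt1 were Sh3gl2 (0.451), Foxq1 (0.514), Islr2 (0.528), Slc13a2 (0.531) and 4933402E13Rik (0.565), against a median of 1.682 over 12725 genes. Foxq1, a forkhead factor gene, changed by -1.74 in 129Sv and -3.54 in B6, and its effects differed between strains by 1.80 (limma adjusted p = 0.00614). For the others nearest Dmrt1 that difference did not pass (limma adjusted p = 0.182, 0.246, 0.574 and 0.898). All were picked for likeness to Dmrt1 on these same arrays, so such changes follow from the choice and add no support. Nearest Dmrt3 were Tcl1 (0.303), an AKT coactivator gene of early embryos, Mocos (0.329), Scgn (0.335), Nfasc (0.337) and Nphs1 (0.337), against a median of 1.003. Nearest Dmrtc2 were Dnd1 (0.168), which encodes a germ cell RNA-binding protein, Gulo (0.168), Dbndd2 (0.209), Stat5a (0.229) and Rhoh (0.23), against 0.84. Dnd1 is also 1 of the 9 germ cell markers.

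Lists tied to the settings where each gene is known gave the following counts of tested members, to be read against the share of all tested genes that rose or fell, 4.07% and 4.24% in the 129Sv knockout and 2.45% and 5.45% in B6. For lists this short, 1 called gene is close to that background. For Dmrt1, 22 testis determination genes included 1 that rose in the 129Sv knockout (Six4, 1.27), and 2 that rose (Six4, 0.71, and Nr0b1, 0.88) and 1 that fell (Sox8, -1.16) in B6. Without both arrays of the highest Actb ratio, Nr5a1 also fell in 129Sv (-0.42, limma adjusted p = 0.0407) and Six4 lost its call in B6 (0.76, 0.0676). Of 12 ovary determination genes, Rspo1 (1.59) and Lef1 (0.80), both of the WNT pathway, rose in 129Sv, and Wnt4 (0.81) rose in B6, where Fst (-1.27) also fell with those arrays left out. Of 5 genes reported to depend on DMRT1, Sox2 rose by 2.84 in 129Sv and by 1.05 in B6, and Stra8 (-1.24), Sohlh1 (-2.45) and Sox8 (-1.16) fell in B6. Sox8 is the same gene as in the testis determination list, and is also 1 of the Sertoli cell markers. For Dmrt3, 5 of 16 listed spinal cord and neuron genes were tested. Lhx1 (3.40 and 2.41) and Th (1.96 and 0.78) rose in both strains and Tubb3 (1.08) in B6, with list medians of 0.66 and 0.78. Lhx1 is also in the mesonephros list. For Dmrt2, of 7 somite and muscle genes Tnni1 (1.20) rose in 129Sv and Myh3 (-0.83) fell in B6. For Dmrtc2, of 16 meiotic chromosome axis genes 4 rose in 129Sv, among them Sycp1 (1.08) and Hormad2 (1.24). In B6, 3 rose, which are not named here, and 5 fell, among the latter Tex12 (-1.71), Syce3 (-1.29) and Sycp3 (-1.26). In wild type 8 of the 16 were higher in 129Sv and 1 lower, against 10.9% and 5.19% of all tested genes. Without both arrays of the highest Actb ratio these counts were 4 and 5 in the B6 knockout and 10 and 1 in wild type.

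Cell type lists showed how the testes compared otherwise. Of 12 Sertoli cell markers, 3 fell in each knockout, among them Cst9 (-1.20 in 129Sv and -1.35 in B6) and Fshr (-1.65 and -1.97), and their summed intensity was 27460 to 30210 in 129Sv wild type, 22590 to 26250 in 129Sv knockout, 29890 to 31400 in B6 wild type and 27790 to 29810 in B6 knockout. With both high-Actb arrays left out, 2 fell in 129Sv and 3 in B6. On each knockout array 1 of the 12 was below 16, and 0 on each wild-type array, so part of these falls lies below the filter. Their mean log2 level changed by -0.31 in 129Sv and -0.36 in B6, and by -0.2 and -0.25 with values below 16 set to it. Of 3 tested mesonephros markers, Lhx1 rose in both strains and Pax8 fell in 129Sv (-1.88). The summed intensity of the 4 mesonephros markers on the array was 97.7 to 127.1 in 129Sv wild type and 164.6 to 271.4 in the knockout. In B6 it was 82.5 to 99.1 and 114 to 321.5, and neither strain overlapped. On each array 1 to 3 of these 4 were below 16, so the sum can follow a single marker. No tested fetal Leydig (4), interstitial (7), endothelial (6) or macrophage (6) marker was called in either knockout by limma. At an unadjusted p under 0.05 there were 2, 1, 2 and 0 of them in 129Sv and 1, 1, 1 and 0 in B6, in that order. Without both arrays of the highest Actb ratio 1 interstitial marker fell in 129Sv (Ptch1, -0.34). The summed intensity of the fetal Leydig cell markers was 17000 to 17770 in 129Sv wild type and 13690 to 15420 in the knockout, and that of the endothelial markers 1172 to 1258 and 828.7 to 1090, without overlap. In B6 both sums overlapped. Between the knockouts, 4 of 12 Sertoli and 3 of 4 fetal Leydig cell markers were called lower in 129Sv. So were 2 of 7 interstitial, 3 of 6 endothelial, 3 of 6 macrophage and 1 of 3 mesonephros markers, and none of these lists had a higher one. Over all tested genes 13.8% were lower. Without both arrays of the highest Actb ratio the lower counts were 2, 3, 2, 2, 1 and 0, in that order. The part of these shifts in the differences of the DM domain genes was not tested.

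Other DM domain genes of the array were weak or strain-dependent. Dmrta1 had intensities of 62.5 to 87.6 in 129Sv wild type and 158 to 286 in B6 wild type, without overlap (14.1% of tested genes in this direction), with a log2 difference of -1.52 ± 0.25 (2.87-fold lower in 129Sv, limma adjusted p = 0.00106). It was also lower in 129Sv among the knockouts (64.6 to 86.5 against 121 to 205, log2 -0.97 ± 0.25, adjusted p = 0.00841), but there the call was lost without both arrays of the highest Actb ratio (-0.73, adjusted p = 0.0548). Its knockout effects were -0.02 ± 0.25 in 129Sv and -0.57 ± 0.25 in B6, not past the threshold (adjusted p = 0.981 and 0.177). Dmrta2 and Dmrtb1 stayed below 16 on all arrays, and Dmrtc1a had group means below 16.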

How the data were processed

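Testis RNA of 12 arrays was measured, and the authors deposited intensities per probe set, summarised with GCRMA per the submitters' processing notes (version not given in the sources used here). Values of at least 1.4 with array medians near 18 were read as linear, and log2 was taken here. GCRMA shrinks dim probe sets towards a floor, so small intensities carry little order. Arrays were grouped by the labels' description. Array number, 3 per group, limits the precision.

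Of 45101 probe sets, 34945 had 1 gene, 932 several, 9211 none and 13 were controls. A gene was represented by its brightest probe set. A model of 4 group means was fitted with limma 3.58.1 in R 4.3.3 (trend, 8 residual and 6.71 prior degrees of freedom). Exact permutation tests of 3 arrays against 3 used scipy 1.17.1. For those permuted within strain or genotype, which gave the p-values printed here, all 400 assignments were listed directly. Folds with a group mean under log2 4 were computed against 4 ("at least").

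The genes and lists were chosen with earlier results of these data known. Named were all probe sets of the 4 genes, called list members (up to 4 per direction, not all of them), called or nearest genes of the 8 tested neighbours per side, and the 5 nearest patterns. The other filters, probe-set rules, scalings, covariates, blocks and left-out arrays tried are in the closing section.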

Additional observations from a re-analysis of the deposited data

Results flagged for a closer look

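The effect of the knockout on Dmrt1 itself differed between the strains by 1.08 on the log2 scale (129Sv minus B6, limma adjusted p = 0.045), which passed the threshold in the test of that difference. It did not pass in 19 of 26 alternatives, 10 of them among the 12 fits without 1 array. The fall was -2.64 in 129Sv and -3.72 in B6, and every 129Sv knockout array (145 to 181) lay above every B6 knockout array (64.0 to 86.4). The mean log2 level of germ cell markers moved by -0.11 and -0.97 in the same comparisons, and its part in the difference was not tested.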

How the results depend on the processing

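Of 473 values of 18 results recomputed under other choices, 419 kept their direction and side of the threshold, 37 lost the call, 9 gained it and 8 changed sign, none of these called. The Dmrt1 wild-type strain difference was -0.08 with the title number as a covariate and ran from -0.06 to 0.17 without 1 array. In fits with the title number, here the one before the strain, 129Sv wild type rests on array 2 alone. The Dmrt3 difference of effects was -0.07 with the title number and ran from -0.08 to 0.32 without 1 array. For Dmrtc2 the difference of effects was -0.01 with the floor at log2 4, and the 129Sv knockout difference ran from -0.53 to 0.03 without 1 array. The Dmrt1 and Dmrt3 knockout calls held in the alternatives run, of which the second Dmrt3 probe set passed the filter only through knockout arrays. With the filter raised to log2 6, the brightest Dmrt3 probe set also passed only through knockout arrays. In both of these fits Dmrt3 had to differ, so they add no support. The mean of probe sets left Dmrt3 below the filter and was not run for it. The strain difference in the Dmrt1 effect did not pass at 1.08 with no filter, the mean of probe sets, no variance trend, single probe sets and the replicate block (limma adjusted p = 0.0564, 0.0526, 0.0539, 0.0777 and 0.0698). It also missed at 1.04 with quantile normalisation and with both arrays of high Actb ratio left out (0.0522 and 0.0769), at 1.05 with the Actb ratio as a covariate (0.0513) and at 1.24 with the title number as a covariate. Without 1 array it ran from 0.98 to 1.23. The Dmrtc2 fall in B6 was -0.24 with a floor at log2 4, and -1.37 to -0.96 without 1 array. Its average over strains lost the call at -0.65 (quantile), -0.66 (median centring), -0.24 (floor) and -0.79 (title number), and ran from -0.82 to -0.55 without 1 array. Its wild-type strain difference passed at 0.80 (floor), 0.70 (array weights) and 0.82 (replicate block, both arrays of high Actb ratio left out, only the groups compared), and ran from 0.69 to 0.97 without 1 array. Array weights also brought past the threshold the Dmrtc2 difference of effects (1.36) and the Dmrt3 strain difference in the knockouts (0.61, adjusted p = 0.0206). The cause of these changes was not tested. Deviations of wild-type and knockout arrays of the same replicate number correlated between -0.47 and 0.01. For B6 replicates 1 and 2, which share a title number, the values were 0.01 and 0. With 3 arrays per group such values cannot settle whether arrays were paired. The replicate block is given only here. Dim signal limits Dmrt2, Dmrtc2 in B6 and 3 of the 4 Dmrt3 probe sets, which lie near or below 16. The references to marker levels, their floor and the list and neighbour calls without the high Actb arrays were added after the data were seen.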

Other observations

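Dmrta2, a DM domain gene of the developing brain and no member of the set above, stayed below the filter on all arrays. Its knockout arrays lay above the wild-type arrays of their strain without overlap, as for 14.2% of tested genes in 129Sv and 14.3% in B6. It was at 5.6 to 6.08 in 129Sv wild type and 6.59 to 8.3 in the knockout, and at 4.74 to 6.12 and 6.74 to 8.27 in B6. With no filter its average log2 difference was 0.38 ± 0.1 (limma adjusted p = 0.0196), and within each strain it did not pass (0.163 and 0.107). These intensities lie where the deposited values carry little order.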
